A study of Mus musculus with 12 samples.

Results

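Etv1, Etv4 and Etv5 are the 3 genes of the PEA3 subfamily of ETS transcription factors. They were taken by gene symbol from a table of read counts for 31017 symbols in 12 RNA-seq libraries of the mouse mammary carcinoma line 4T1, and all 3 passed the filter on low counts that left 12079 genes for testing. Every library came from cells nucleofected with Cas9 and a guide RNA and then grown in 3D collagen I gels for 4 days in medium with 2% serum. There were 4 groups of 3 libraries each: ETV4 guide with FGF, control guide with FGF, ETV4 guide without FGF, and control guide without FGF. The sample titles call the ETV4-guide samples ETV4 KO, for knockout. FGF stands for FGF10 (25 ng/ml) plus FGF2 (40 ng/ml), present from seeding in 10% serum onwards. The library names of all ETV4-guide samples carry the tag sgETV4-C39; the labels leave C39 unexplained, and if it names 1 clone, the effect of the guide and the history of that clone cannot be told apart. The collagen concentration was either 1.2 mg/ml or else 2.4 mg/ml, not stated by library. Separate cultures are not stated for the replicates either, so a p-value here sets a difference against the spread between libraries that may be technical repeats.

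ETS factors bind DNA at sites with the core letters GGAA through a conserved ETS domain. The PEA3 factors are known as nuclear effectors of receptor tyrosine kinase, RAS and ERK signalling: FGF signalling raises their transcripts in many embryonic tissues, ERK phosphorylation increases their activity, the COP1 ubiquitin ligase targets the proteins for degradation, and the repressor Capicua (Cic) holds their genes down until ERK relieves it. In mammary epithelium they are expressed during ductal growth, and in mammary tumours they have been linked to invasion and to protease genes.

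Library totals ran from 18229429 to 23193244 counts, and no 2 libraries of a group were duplicates (chi-square per degree of freedom of 3.34 or more). ETV4-guide replicate 2 without FGF stood apart. It gave a chi-square per degree of freedom of 73.1 and 74.3 against its own replicates, its deviations from the mean of all libraries followed exon length (Spearman's rho -0.40 across genes) and GC content (0.44), and ribosomal protein genes took 7.68% of its counts, against 5.67% and 5.93% in replicates 1 and 3. Control-guide replicate 2 with FGF departed by less, with a chi-square per degree of freedom of 11.6 and 9.37 against its own replicates (4.04 between those) and a rho of -0.19 with exon length. Of 8 epithelial markers, all but Krt5 were detected in each group, with Krt8 highest, and their summed level was 4000 to 4125 CPM with the ETV4 guide and FGF, 4804 to 5386 with the control guide and FGF, 4413 to 6329 with the ETV4 guide alone, and 4717 to 4886 with the control guide alone. The part of the lower epithelial sum with the ETV4 guide and FGF in the results was not tested. Leukocyte, fibroblast and endothelial markers summed to at most 11.6, 15.9 and 0.748 CPM in any library. In bulk RNA, fewer cells that express a gene and less RNA per cell cannot be told apart.

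The coding sequences show how alike the 3 members are. They are 1431 bases long in Etv1, 1458 in Etv4 and 1584 in Etv5 (mm10 transcripts of GENCODE vM21), and in global alignments 65.9% of aligned bases were identical between Etv1 and Etv4, 70.4% between Etv1 and Etv5, and 66.8% between Etv4 and Etv5. The following stretch of 60 bases from the part that codes for the ETS domain is shown because it holds the longest runs of identical bases, 23 in Etv4 and Etv5 and 23 in Etv1 and Etv5; capitals mark the 50 positions that are identical in all 3 genes. It starts at coding base 1198 in Etv1, 1222 in Etv4 and 1351 in Etv5.
Etv1: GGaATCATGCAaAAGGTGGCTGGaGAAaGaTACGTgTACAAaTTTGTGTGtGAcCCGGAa
Etv4: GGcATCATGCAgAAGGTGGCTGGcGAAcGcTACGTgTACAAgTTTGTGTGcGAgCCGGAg
Etv5: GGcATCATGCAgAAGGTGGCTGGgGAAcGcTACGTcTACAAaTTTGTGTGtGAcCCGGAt
Even here each pair differed at 6 to 9 positions, and the annotated transcripts of different members shared no run of 50 bases. None of the 3 gene models overlapped another annotated gene.

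Promoter windows were read as the 250 bases before a RefSeq start site (GRCm38.p6). Of these, 2 are shown because Etv5 was called between the guides in both conditions and Etv1 in neither. Etv4 was called in both as well, but the promoter reference used held no window for it. Capitals mark GGAA, the ETS core, and TGAATG, the stem shared by the octamers TGAATGAA and TGAATGGA that Capicua binds, on either strand (TTCC and CATTCA on the other). The Etv5 window, on the minus strand at chr16:22438369-22438618, held 4 GGAA and 3 TGAATG; the Etv1 window, on the plus strand at chr12:38779832-38780081, held 2 GGAA and no TGAATG.
Etv5: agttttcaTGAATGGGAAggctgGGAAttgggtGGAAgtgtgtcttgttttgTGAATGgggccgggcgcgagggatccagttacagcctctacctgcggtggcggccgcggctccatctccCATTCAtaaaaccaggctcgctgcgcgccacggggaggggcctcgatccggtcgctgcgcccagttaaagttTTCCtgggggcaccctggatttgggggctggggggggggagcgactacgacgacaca
Etv1: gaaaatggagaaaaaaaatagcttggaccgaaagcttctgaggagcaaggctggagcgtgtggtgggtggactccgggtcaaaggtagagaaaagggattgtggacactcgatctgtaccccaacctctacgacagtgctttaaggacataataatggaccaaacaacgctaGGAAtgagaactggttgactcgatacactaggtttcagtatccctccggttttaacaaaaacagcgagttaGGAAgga
GGAA is common: 93.4% of 32536 windows of this length held it, and 33.5% held 4 or more. TGAATG was in 10.7% of the windows and occurred 3 or more times in 0.132% of them (43 windows); these letters were chosen after the sequences had been seen. No whole octamer and no TGANTCA, the AP-1 site, occurred in the Etv1 and Etv5 windows; over all windows the shares were 1.09% for TGAATGAA, 0.993% for TGAATGGA and 6.73% for TGANTCA. A second Etv5 window at an upstream start held neither GGAA nor TGAATG, and a second Etv1 window held 1 GGAA. These matches describe letters and not bound sites.

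Etv4, the gene the guide targets, was read in every library (mm10 chromosome 11, 101769742 to 101785371, minus strand). With FGF, replicates 1 to 3 had 115.2, 119.5 and 113.1 CPM with the ETV4 guide, against 154.5, 173.0 and 166.9 CPM with the control guide (CPM, TMM-scaled counts relative to the library total). Without FGF they had 116.3, 159.0 and 116.0 CPM with the ETV4 guide, against 167.9, 162.2 and 167.5 CPM with the control guide. All ETV4-guide libraries lay below all control-guide libraries of the same condition, but ETV4-guide replicate 2 without FGF lay only just below them. A change that a guide makes in a coding sequence need not lower the transcript. Reads from an altered transcript are also counted as Etv4, so these levels check the knockout label only in part.

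With the ETV4 guide relative to the control guide, the Etv4 transcript was 29.7% lower in the FGF cultures (log2 fold change -0.51, SE 0.11, 95% interval -0.74 to -0.28, edgeR adjusted p = 0.00204). In the cultures without FGF it was 21.4% lower (log2 -0.35, SE 0.11, interval -0.58 to -0.12, edgeR adjusted p = 0.0173). When ETV4-guide replicate 2 was omitted, the value without FGF was log2 -0.51 (edgeR adjusted p = 1.14e-07). It missed the threshold of 0.05 when control-guide replicate 1 was omitted (log2 -0.34, edgeR adjusted p = 0.0514), and likewise without ETV4-guide replicate 1 (-0.27, 0.0661) or ETV4-guide replicate 3 (-0.27, 0.0667). The change was well inside the distribution of all genes: 16.0% of tested genes had a lower log2 fold change than Etv4 with FGF and 24.9% without.

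Etv5 (chromosome 16, 22381309 to 22439719, minus strand) was the member with the largest change. With FGF its level in replicates 1 to 3 was 34.6, 31.8 and 32.6 CPM with the ETV4 guide, against 68.6, 69.1 and 68.8 CPM with the control guide. Without FGF it was 35.8, 30.6 and 32.4 CPM with the ETV4 guide, against 62.5, 60.5 and 61.7 CPM with the control guide. The 6 ETV4-guide libraries spanned 30.6 to 35.8 CPM, far below every control-guide library, and ETV4-guide replicate 2 did not stand apart from the others in this gene beyond being the lowest. Etv5 fell by 52.0% with FGF (log2 -1.06, SE 0.07, interval -1.22 to -0.90, edgeR adjusted p = 1.98e-07) and fell by 46.5% without (log2 -0.90, SE 0.07, interval -1.06 to -0.74, edgeR adjusted p = 8.99e-07). By p-value it ranked 142 with FGF and 222 without among 12079 genes, and 7.38% and 8.83% of genes had a lower log2 fold change.

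Etv1 (chromosome 12, 38779380 to 38870484, plus strand) was not called between the guides, with or without FGF. With FGF its level was 109.0, 98.4 and 105.2 CPM with the ETV4 guide, against 98.9, 90.3 and 103.8 CPM with the control guide. Without FGF it was 114.5, 76.1 and 115.6 CPM with the ETV4 guide, against 105.1, 109.5 and 106.1 CPM with the control guide. The groups overlapped in both conditions, and the lowest value of the 12 was ETV4-guide replicate 2 without FGF, while the other 2 libraries of that group were the highest of all. The log2 fold change between the guides was 0.09 with FGF (SE 0.13, interval -0.18 to 0.37, edgeR adjusted p = 0.597) and -0.07 without (SE 0.13, interval -0.34 to 0.21, edgeR adjusted p = 0.701). The sign without FGF turned to 0.11 when replicate 2 was omitted (edgeR adjusted p = 0.156).

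Of the 3 members, 2 were called lower with the ETV4 guide in each condition. Of all tested genes, 22.2% were called lower with FGF and 23.3% without, and 40.3% and 45.8% were called in either direction. Groups that did not overlap, with the ETV4 guide lower, made up 31.7% of genes with FGF and 28.0% without, and groups that did not overlap in either direction 61.4% and 53.6%. The plot of levels per library shows the members side by side.

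**Figure D1:**
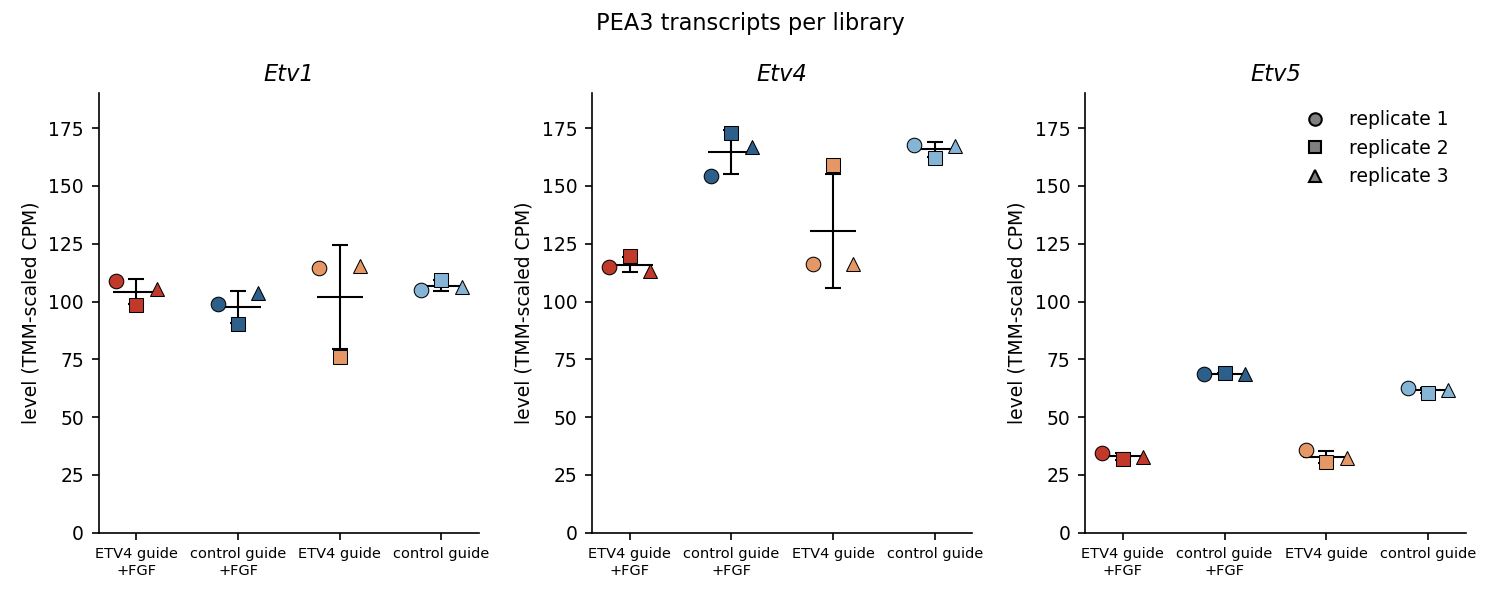
Level of Etv1, Etv4 and Etv5 in TMM-scaled CPM (y axis, from 0) in the 4 groups (x axis). Points are single libraries, with the shape giving the replicate, and bars show mean ± SD (n = 3). ETV4-guide libraries lie below control-guide libraries of the same condition for Etv4 and Etv5. The ETV4-guide replicate 2 without FGF (square) is low for Etv1 at 76.1 CPM and high for Etv4 at 159.0 CPM.

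FGF was the second variable of the design. In control-guide cells, Etv5 averaged 68.8 ± 0.234 CPM with FGF and 61.6 ± 0.998 CPM without (SD, n = 3 each), a rise of 11.7% in level that did not pass the test across all genes (log2 0.16, SE 0.07, interval 0.00393 to 0.32, unadjusted p = 0.0453, edgeR adjusted p = 0.834). The 2 groups did not overlap for Etv5, as was the case in that direction for 9.14% of all genes and in either direction for 18.3%. Etv4 averaged 164.8 ± 9.44 CPM with FGF and 165.8 ± 3.18 CPM without, and its log2 fold change was -0.01 (SE 0.11, interval -0.24 to 0.22, edgeR adjusted p = 0.99969). Etv1 averaged 97.7 ± 6.84 CPM with FGF and 106.9 ± 2.28 CPM without. Its groups did not overlap, with FGF lower, but the log2 fold change of -0.13 did not pass (SE 0.13, interval -0.41 to 0.15, edgeR adjusted p = 0.99969), and it was -0.08 without control-guide replicate 2 with FGF, the lowest library for Etv1 in its group. None of the 3 members was called, where 0.257% of all genes were called higher, 0.232% lower and 0.488% in either direction.

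In ETV4-guide cells the FGF groups overlapped for all 3 members. Etv5 averaged 33.0 ± 1.42 CPM with FGF and 32.9 ± 2.65 CPM without (SD, n = 3 each), a log2 fold change of 0.00 with an interval of -0.16 to 0.17. For Etv4 the means were 115.9 ± 3.30 and 130.4 ± 24.8 CPM with and without FGF (log2 -0.17, interval -0.40 to 0.06, edgeR adjusted p = 0.379), and for Etv1 104.2 ± 5.40 and 102.1 ± 22.5 CPM (log2 0.03, interval -0.25 to 0.31, edgeR adjusted p = 0.914). The wide SD of Etv4 and Etv1 without FGF came with ETV4-guide replicate 2: without it the FGF effect was 0.00 for Etv4 (-0.00253) and -0.14 for Etv1. None of the members was called, where 1.47% of all genes were called higher, 0.944% lower and 2.42% in either direction.

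The FGF effect was tested for a dependence on the guide, and no member passed. The FGF effect with the ETV4 guide minus that with the control guide was log2 -0.16 for Etv5 (SE 0.10, interval -0.38 to 0.07, edgeR adjusted p = 0.540), -0.16 for Etv4 (interval -0.49 to 0.16, edgeR adjusted p = 0.629) and 0.16 for Etv1 (interval -0.23 to 0.55, edgeR adjusted p = 0.684). Of all genes, 0.0166% were called, which were Mmp9 and Mmp13, and neither was called in 7 of the 12 fits that omitted 1 library. Averaged over both guides, the FGF effect on Etv5 was log2 0.08 (interval -0.03 to 0.19, edgeR adjusted p = 0.548), on Etv4 -0.09 (interval -0.25 to 0.07, 0.679) and on Etv1 -0.05 (interval -0.25 to 0.14, 0.866), and 2.43% of all genes were called. The value for Etv1 was -0.14 and passed when ETV4-guide replicate 2 was omitted (edgeR adjusted p = 0.0452). A change of Etv4 or Etv5 with FGF of the size seen with the ETV4 guide lies outside these averaged intervals. For Etv4, however, the FGF interval in ETV4-guide cells alone, -0.40 to 0.06, includes the guide value of -0.35 seen without FGF.

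**Figure D2:**
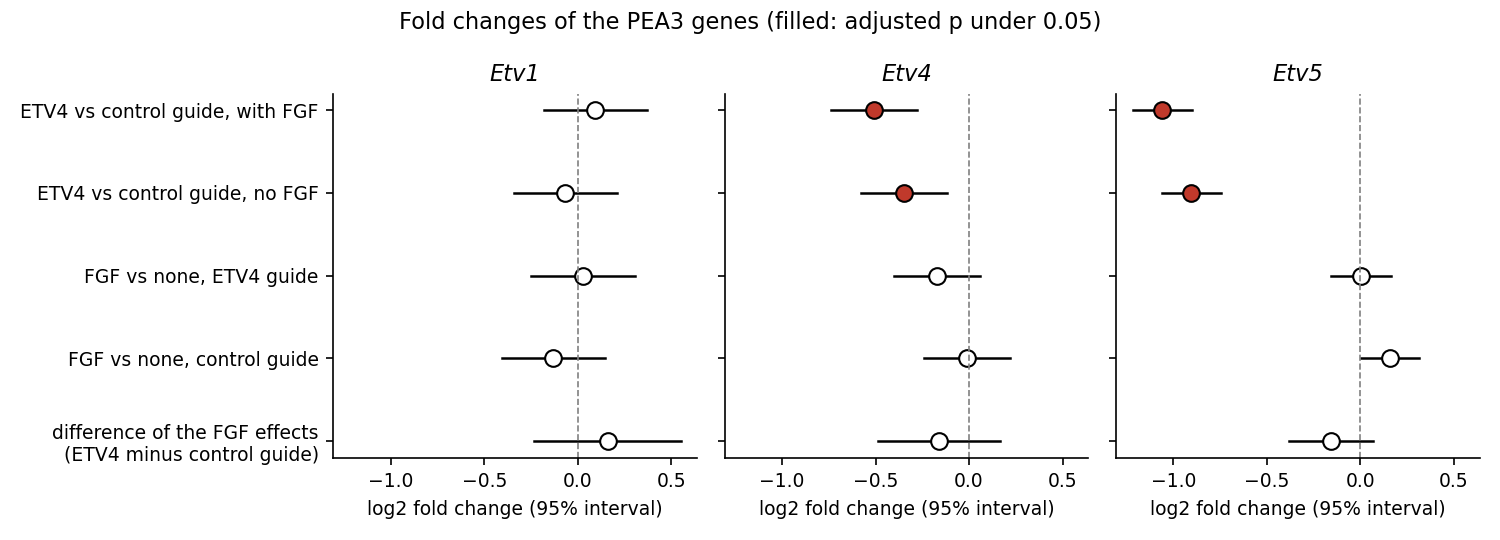
Log2 fold changes (x axis, 0 is no change) of Etv1, Etv4 and Etv5 in 5 comparisons (y axis); points are edgeR estimates, filled where the adjusted p is under 0.05, and lines are 95% intervals. The filled points are those of Etv4 and Etv5 between the guides, from -1.06 to -0.35, and no FGF effect and no difference of FGF effects is filled.

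Levels of different genes were compared per kilobase of exon. Over the union of annotated exons, Etv4 was the most abundant member in every group, at 37.3 ± 1.06 CPM per kb with the ETV4 guide and FGF, 53.1 ± 3.04 with the control guide and FGF, 42.0 ± 7.98 with the ETV4 guide alone and 53.4 ± 1.03 with the control guide alone (SD, n = 3 each). Etv5 stood at 8.05 ± 0.347, 16.8 ± 0.0571, 8.02 ± 0.646 and 15.0 ± 0.243 CPM per kb in the same groups. Etv1 stood at 7.84 ± 0.406, 7.35 ± 0.515, 7.68 ± 1.69 and 8.04 ± 0.171 CPM per kb. On this scale Etv5 exceeded Etv1 in control-guide cells and did not differ from it beyond the spread in ETV4-guide cells. The Etv1 model has 13296 bases of exon in all but 6576 in its longest transcript, and per kilobase of the longest transcript the order changed: Etv1 was at 15.8 ± 0.820 with the ETV4 guide and FGF, 14.9 ± 1.04 with the control guide and FGF, 15.5 ± 3.42 with the ETV4 guide alone and 16.3 ± 0.347 with the control guide alone. Etv5 was then at 8.31 ± 0.358, 17.3 ± 0.0589, 8.28 ± 0.667 and 15.5 ± 0.251, so that it was below Etv1 with the ETV4 guide in both conditions and, by less, with the control guide alone, and above Etv1 with the control guide and FGF. Among 12025 tested genes with a length, Etv4 was at percentile 88.0 with the ETV4 guide and FGF, 92.5 with the control guide and FGF, 89.1 with the ETV4 guide alone and 92.8 with the control guide alone, and Etv5 at 55.1, 74.1, 54.9 and 71.9.

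Among 26 ETS genes ordered by their level per kb of exon, Etv4 came in place 3 with the ETV4 guide and FGF, after Elk3 and Ets1, and in place 2 after Elk3 in the other 3 groups. Etv5 was in place 11 with the ETV4 guide in both conditions, in place 6 with the control guide and FGF and in place 7 with the control guide alone. Etv1 was in place 12, 13, 12 and 13 in the same order of groups as above. These places use the union of exons. Places by the longest transcript, on which Etv1 stood higher per kilobase, were not computed.

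The summed PEA3 level, in CPM per kb of exon, was 53.7, 53.7 and 52.3 in replicates 1 to 3 with the ETV4 guide and FGF, against 73.9, 79.4 and 78.3 with the control guide and FGF. Without FGF it was 54.8, 64.4 and 54.0 with the ETV4 guide, against 77.2, 75.2 and 77.0 with the control guide. The guides did not overlap in either condition. The mean sum was 31.1% lower with the ETV4 guide than with the control guide in the FGF cultures and 24.5% lower without FGF (28.9% lower without ETV4-guide replicate 2), and with lengths of the longest transcript it was 28.1% and 22.5% lower. Etv4 made up -15.7 of the difference of -24.0 CPM per kb with FGF, Etv5 -8.73 and Etv1 0.493. Without FGF the parts were -11.4, -6.99 and -0.364 of -18.8 CPM per kb. The part of Etv1 was thus small in both conditions, and of opposite sign. With FGF, the sum was 7.77% lower than without in ETV4-guide cells, but 2.10% lower when ETV4-guide replicate 2 was omitted. The sums with and without FGF did not overlap there, with or without that library, but the nearest were 53.7 and 54.0. Of all single genes, 12.5% did not overlap in that direction and 23.9% in either direction. In control-guide cells the sum was 0.961% higher with FGF, and the sums overlapped. No test was made of the sum, because its members were chosen with results known.

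The shares of the members in the sum were compared between the guides. The Etv5 share was 15.1 ± 0.625% with the ETV4 guide and FGF, against 21.7 ± 0.766% with the control guide and FGF, and 14.0 ± 2.23% with the ETV4 guide alone, against 19.6 ± 0.0928% with the control guide alone (SD, n = 3 each). The Etv4 share was 70.2 ± 1.42% with the ETV4 guide and FGF, against 68.7 ± 1.46% with the control guide and FGF, and 72.4 ± 6.21% with the ETV4 guide alone, against 69.9 ± 0.355% with the control guide alone. The Etv1 share was 14.7 ± 0.816% with the ETV4 guide and FGF, against 9.53 ± 0.842% with the control guide and FGF, and 13.6 ± 4.06% with the ETV4 guide alone, against 10.5 ± 0.376% with the control guide alone. Per kb of the longest transcript, the Etv1 share with FGF was 21.8% with the ETV4 guide, against 14.7% with the control guide, and the Etv5 share 11.4% against 17.2%. In ETV4-guide replicate 2 without FGF the shares were 79.5% Etv4, 11.6% Etv5 and 8.88% Etv1, and without that library the means of its group were 68.8% Etv4, 15.3% Etv5 and 15.9% Etv1. Ratios of counts within a library need no scaling between libraries. The log2 ratio of Etv5 to Etv4 counts was -1.73, -1.91 and -1.79 with the ETV4 guide and FGF, against -1.17, -1.32 and -1.28 with the control guide and FGF. Without FGF it was -1.70, -2.38 and -1.84 with the ETV4 guide, against -1.42, -1.42 and -1.44 with the control guide. Every ETV4-guide library was lower, so that Etv5 counts were reduced more than those of the targeted gene itself in these libraries.

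**Figure D3:**
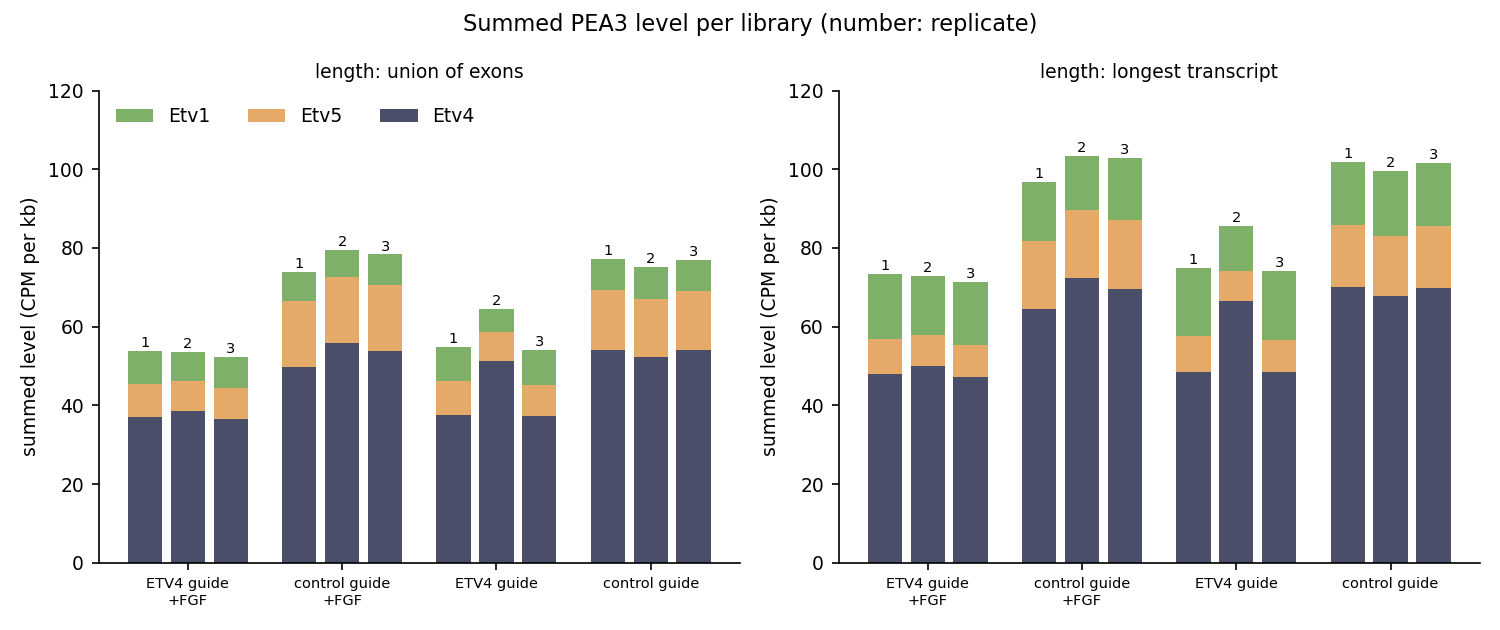
Summed level of the PEA3 genes in CPM per kb (y axis, from 0) in each library (bars, with the replicate number on top), split into Etv4, Etv5 and Etv1, with lengths from the union of exons (left) and the longest transcript (right). Sums lie between 52.3 and 64.4 with the ETV4 guide and between 73.9 and 79.4 with the control guide in the left panel.

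Genes near the members were read beside them, since many genes differed between the guides. The 25 tested genes on each side of Etv4 span 1.937 Mb of chromosome 11. With FGF, 37 of these 50 neighbours were called lower and 1 higher, with a median log2 fold change of -0.47 beside -0.51 for Etv4, and without FGF 29 were called lower and 1 higher, with a median of -0.42 beside -0.35 for Etv4. Etv4 thus lay in the middle of its neighbours: 24 of them were below it with FGF and 29 without. The shift was not limited to the neighbourhood. Over the 991 tested genes of chromosome 11 the median was -0.41 with FGF and -0.37 without, and 61.4% and 56.9% were called lower, while the median of all genes was -0.01 in both conditions. Whether the lower Etv4 transcript is part of this shift of its chromosome was not tested.

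Etv5 lay below most of its neighbours, although these were lower as well. Of the 50 genes around it, which span 11.178 Mb of chromosome 16, 27 were called lower and 4 higher in both conditions, with a median log2 fold change of -0.29 with FGF and -0.34 without. Only 4 of the 50 were below Etv5 with FGF and 9 without. Over the 370 tested genes of chromosome 16 the median was -0.37 with FGF and -0.40 without, 57.3% and 58.1% were called lower, and 9.46% and 15.1% had a lower log2 fold change than Etv5. Around Etv1 on chromosome 12 the 50 neighbours, over 24.211 Mb, had medians of 0.05 with FGF and 0.06 without, with 11 called higher and 6 lower with FGF and 12 higher and 8 lower without. Over the 414 tested genes of chromosome 12 the medians were 0.20 and 0.18, and Etv1, at 0.09 and -0.07, had 37.9% and 25.6% of them below it. The part of these chromosome-wide medians in the values of Etv5 and Etv1 was not tested.

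**Figure D4:**
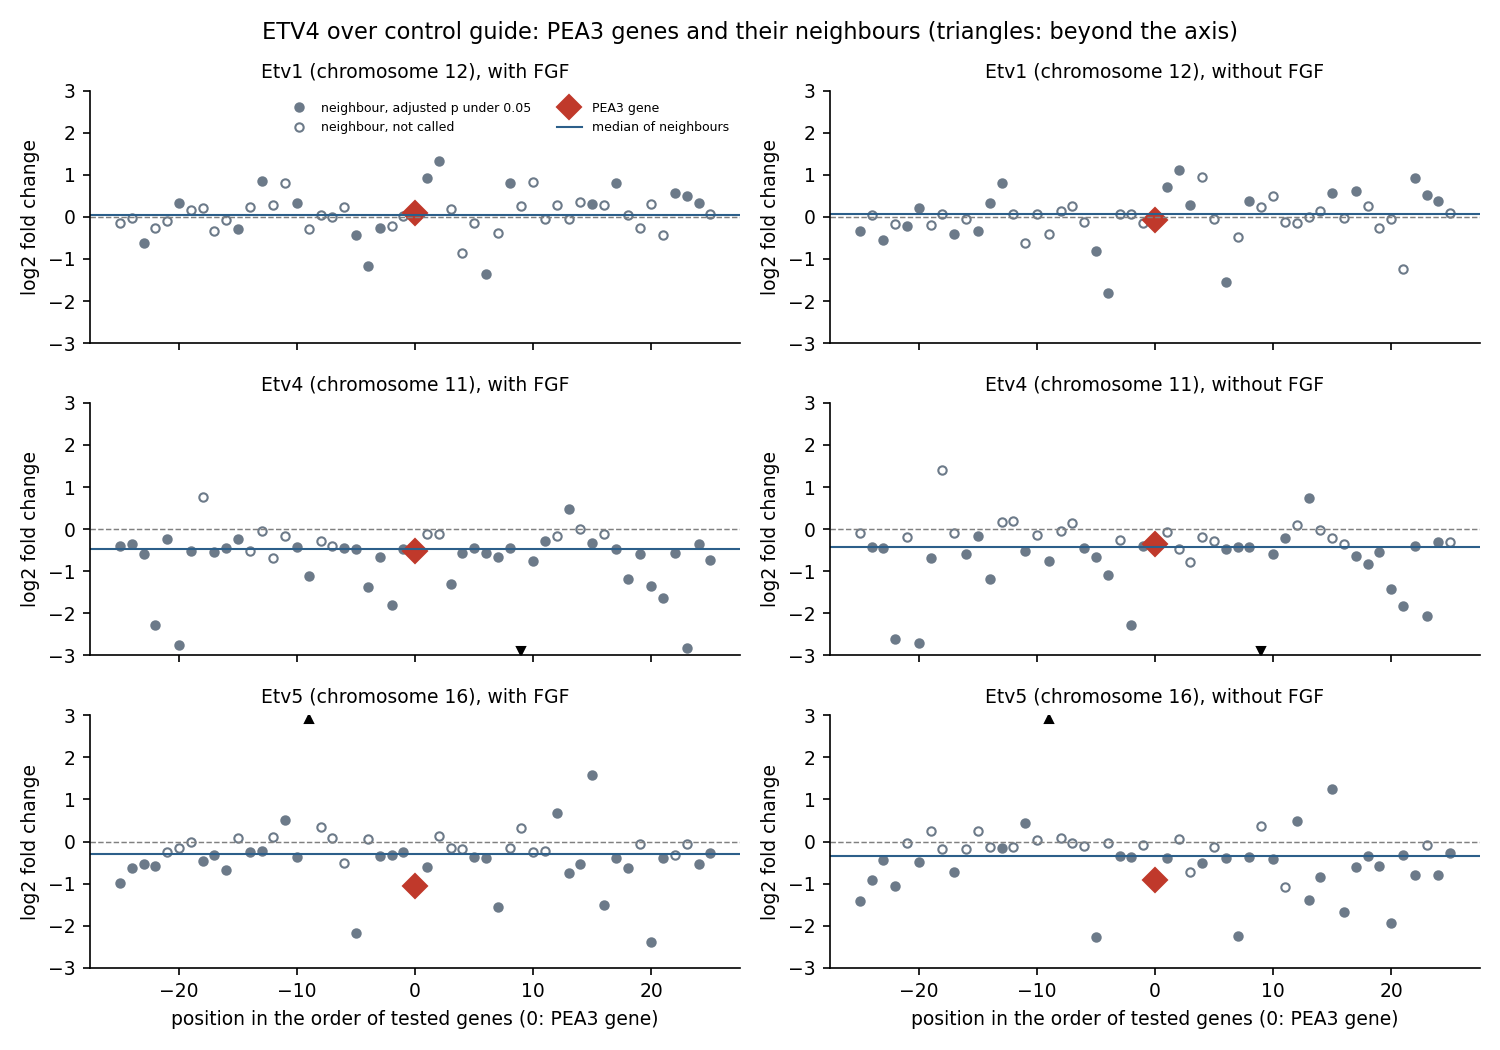
Log2 fold change, ETV4 over control guide (y axis, cut at -3 and 3, with triangles beyond), of each PEA3 gene (diamond) and its 25 tested neighbours on each side in gene order (x axis), with FGF (left) and without (right). Filled circles passed an adjusted p of 0.05, and the solid line is the median of the neighbours. Etv4 sits at the line in both panels of its row, and Etv5 sits below it by log2 0.76 with FGF and 0.56 without.

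The genes with the profile most like each member were found by the root mean square distance of centred log2 CPM over the 12 libraries, among 10088 genes. For Etv4 they were Aspscr1 (0.0355), Srp68 (0.0424), Sqstm1 (0.0428) and Trap1 (0.0441), where Etv4 itself varied by 0.251 about its mean; the first 3 also lie on chromosome 11, and Trap1 on chromosome 16. For Etv5, which varied by 0.497, they were Fam107b (0.0833), Arl4c (0.0848), Lcp1 (0.0890) and Igsf9 (0.0899), on chromosomes 2, 1, 14 and 1. For Etv1, which varied by 0.159, they were Epc2 (0.0466), Zc3h4 (0.0539), Caprin1 (0.0544) and Kif15 (0.0563). In the order of likeness to Etv4, Etv5 came at place 4932 and Etv1 at 5667. In the order for Etv5, Etv4 came at place 1062 and Etv1 at 4647, and in that for Etv1, Etv4 came at 7581 and Etv5 at 9380.

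Co-variation of the members was examined within each guide over 6 libraries, as 6 relations. In ETV4-guide libraries the largest was between Etv1 and Etv4 (Pearson's r -0.937, exact permutation p = 0.0889, adjusted 0.175; Spearman's rho -0.486, exact permutation p = 0.356, adjusted 0.533). It rested on ETV4-guide replicate 2: r was -0.39 without that library, and 0.946 over the 4 libraries left when the 2 farthest from the median of Etv1 were omitted. Etv1 and Etv5 gave r = 0.750 (exact permutation p = 0.0472, adjusted 0.142; rho 0.657, exact p = 0.175) and 0.236 without the 2 farthest libraries. Etv5 and Etv4 gave r = -0.653 (exact permutation p = 0.117, adjusted 0.175; rho -0.600, exact p = 0.242) and -0.974 without the 2 farthest, while r was -0.25 without ETV4-guide replicate 2. In control-guide libraries Etv5 fell into 2 separate sets, with and without FGF, and Etv1 likewise did not overlap, so no relation was read across both. With group means subtracted, r was -0.52 for Etv1 and Etv4, -0.43 for Etv1 and Etv5, and 0.47 for Etv5 and Etv4. The permutation p adjusted over the 6 relations was 0.358, 0.367 and 0.367. Subtracting group means ties the values within a group, so a p from pairings over all 6 libraries is not exact here. The same step in ETV4-guide libraries gave r = -0.99 for Etv1 and Etv4, again with ETV4-guide replicate 2 at the end. Its permutation p, not exact for the same reason, was 0.05 after adjustment, not under the threshold.

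**Figure D5:**
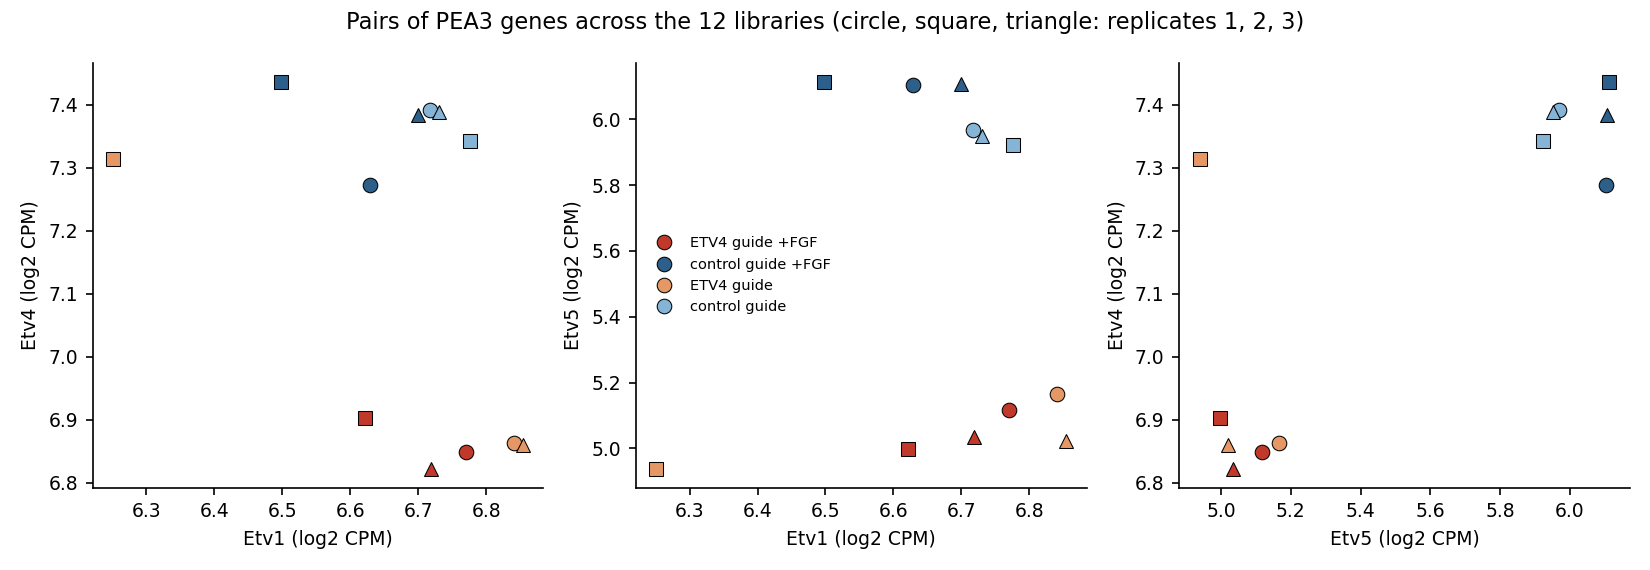
Log2 CPM of pairs of PEA3 genes, with 1 point per library coloured by group and shaped by replicate: Etv4 against Etv1 (left), Etv5 against Etv1 (middle), Etv4 against Etv5 (right). Libraries separate by guide along Etv5, and along Etv4 only within each FGF condition. ETV4-guide replicate 2 without FGF (square) lies away from the rest at the low end of Etv1. Along Etv4 it lies at 7.31, above control-guide replicate 1 with FGF at 7.27.

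Genes known to act on PEA3 factors, or reported as their targets, were counted from lists that share a few genes. For all lists, higher, lower, rose and fell compare the ETV4 guide with the control guide, unless a response to FGF is named. In that comparison, with FGF and without give the culture condition of both guides. Of 24 regulators and cofactors, 4 were called higher and 3 lower with FGF (median log2 fold change -0.04), and 5 higher and 5 lower without (0.02), where 18.0% of all genes were called higher and 22.2% lower with FGF, and 22.5% higher and 23.3% lower without. Trib2, a pseudokinase that serves as an adaptor for COP1, was lower with the ETV4 guide. It fell by 0.92 on the log2 scale with FGF (SE 0.10, edgeR adjusted p = 1.08e-05) and by 0.70 without (SE 0.10, edgeR adjusted p = 9.46e-05). Cic, the repressor of PEA3 genes, rose by log2 0.45 with FGF and 0.44 without (SE 0.07 each, edgeR adjusted p = 0.000188 and 0.000206), and Ddb1, a subunit of the CUL4 ubiquitin ligase that works with DET1 and COP1, rose by log2 0.27 and 0.33 (edgeR adjusted p = 0.00713 and 0.00168). Med25, a Mediator subunit that PEA3 activation domains contact, was at log2 0.25 with FGF, which did not pass (edgeR adjusted p = 0.0565), and rose by 0.48 without (0.00155). In the compared libraries alone, 7 regulators were called higher and 6 lower with FGF, and 3 higher and 2 lower without. Without ETV4-guide replicate 2, 7 regulators were called higher and 7 lower with FGF, and 8 higher without FGF; 3 were called higher without FGF when control-guide replicate 3 was omitted, and 1 was called lower with FGF when control-guide replicate 1 with FGF or ETV4-guide replicate 3 with FGF was omitted.

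Of 30 reported PEA3-family targets, 22 were tested; 9 were called higher and 5 lower with FGF (median log2 fold change 0.03), and 10 higher and 8 lower without (0.02), against the shares of all genes given above (18.0% and 22.2% with FGF, 22.5% and 23.3% without). In the compared libraries alone, 6 were called higher and 6 lower without FGF. The list holds several protease genes, and these did not all move one way between the guides. Mmp1b, Mmp3 and Plau were higher with the ETV4 guide than with the control guide. Mmp1b, a gene of the matrix metalloproteinase family, rose by log2 2.93 with FGF and 2.58 without (edgeR adjusted p = 1.26e-08 and 1.04e-07). Mmp3, which encodes stromelysin, rose by 1.22 and 1.24 (7.21e-09 and 7.74e-09), and Plau, which encodes urokinase, by 1.10 and 1.01 (5.91e-09 and 1.51e-08). Mmp9, a gelatinase gene, and Mmp13, a collagenase gene, were called higher with the ETV4 guide in the FGF cultures (log2 0.34 and 0.43, edgeR adjusted p = 0.00335 and 0.0038). In the cultures without FGF they were called lower with the ETV4 guide (-0.61 and -0.65, 5.03e-05 and 0.000228). Spp1, which encodes the secreted phosphoprotein osteopontin, fell by 1.07 on the log2 scale with FGF and fell by 1.13 without (edgeR adjusted p = 1.42e-07 and 8.54e-08). FGF raised Mmp3 and Plau in cells with either guide. With the ETV4 guide the rise was log2 0.47 and 0.77 (edgeR adjusted p = 0.00114 and 5.47e-06). With the control guide it was log2 0.49 and 0.68 (edgeR adjusted p = 0.00145 and 2.16e-05). The part of the PEA3 factors in this response was not tested. The FGF effect was higher with the ETV4 guide than with the control guide for Mmp9 (difference log2 0.95, edgeR adjusted p = 0.0123) and Mmp13 (1.08, 0.0243). These 2 calls were lost when any control-guide library without FGF, control-guide replicate 1 or 3 with FGF, or ETV4-guide replicate 1 or 2 with FGF was omitted, and that of Mmp13 also without control-guide replicate 2 with FGF. The adjusted p was then up to 0.0910 for Mmp9 and 0.153 for Mmp13, and the difference stayed at log2 0.90 or more for Mmp9 and 0.97 or more for Mmp13. The count of lower targets with FGF was 3 when control-guide replicate 3 with FGF, or ETV4-guide replicate 1 or 3 with FGF, was omitted.

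Of 24 genes listed as ERK pathway output, 12 were called higher and 7 lower with the ETV4 guide in the FGF cultures (median log2 fold change 0.15). Without FGF, 14 were called higher and 5 lower (0.27). The list also holds Cic, the repressor that ERK relieves. Cic was called higher in both conditions and is counted among the regulators too. Of all genes, 18.0% and 22.2% were called higher and lower with FGF, and 22.5% and 23.3% without. In the compared libraries alone, 9 of the 24 were called higher and 4 lower without FGF. Egr1, an immediate early transcription factor, was higher with the ETV4 guide, by log2 0.84 with FGF and 1.14 without (edgeR adjusted p = 1.67e-05 and 1.06e-06). Dusp5, a nuclear ERK phosphatase, was higher by 0.90 and 1.39 (1.60e-06 and 3.24e-08). Spry1, an inhibitor of receptor tyrosine kinase signalling, was lower with the ETV4 guide. It fell by 1.26 on the log2 scale with FGF and by 0.78 without (9.32e-08 and 6.26e-06). Dusp4, another phosphatase of MAP kinases, fell by 0.66 and 0.73 (3.46e-05 and 1.50e-05). The count of lower genes with FGF was 4 when control-guide replicate 3 or ETV4-guide replicate 3 with FGF was omitted. In response to FGF itself, Spred3 rose by log2 0.54 and Spry1 fell by 0.63 with the ETV4 guide (edgeR adjusted p = 0.00305 and 0.0012), and Phlda1 rose by log2 0.36 and Fos fell by 1.12 with the control guide (0.0444 and 5.95e-05); the call of Phlda1 was lost in 9 of the 12 fits that omitted 1 library, with an adjusted p of up to 0.255.

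Of 23 tested genes of FGF and RAS-ERK signalling, 3 were called higher and 5 lower with FGF (median 0.00), and 5 higher and 9 lower without (-0.14), beside 18.0% and 22.2% of all genes with FGF and 22.5% and 23.3% without. Without ETV4-guide replicate 2, 7 were called higher with FGF, and in the compared libraries alone 6 were called higher with FGF, and 2 higher and 5 lower without. Fgfr1, an FGF receptor, averaged 1.08 CPM with the ETV4 guide and FGF, against 9.59 CPM with the control guide and FGF, and 1.57 CPM with the ETV4 guide alone, against 12.2 CPM with the control guide alone (log2 -3.15 and -2.96, edgeR adjusted p = 7.24e-08 and 7.05e-08). Fgfbp1, a secreted carrier of FGFs, was higher with the ETV4 guide, by log2 2.86 with FGF and 2.65 without (edgeR adjusted p = 2.34e-10 and 4.84e-10). Gab1, a docking protein of receptor tyrosine kinases, had log2 fold changes of -1.17 and -1.16 (edgeR adjusted p = 8.94e-05 and 0.000102).

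Of 24 other ETS factors, 13 were tested; 1 was called higher and 3 lower with FGF (median -0.18), and 1 higher and 5 lower without (-0.23), beside the same shares of all genes (18.0% higher and 22.2% lower with FGF, 22.5% and 23.3% without). Ets2, a RAS-responsive activator, was lower with the ETV4 guide. It fell by 0.79 on the log2 scale with FGF and by 0.75 without (edgeR adjusted p = 1.68e-06 and 2.97e-06). Etv6, an ETS repressor, fell by 0.74 and 0.67 (3.36e-05 and 6.74e-05). Elf3, an epithelial ETS factor, rose by log2 0.37 and 0.49 (0.0382 and 0.00717), and its call with FGF was lost in 7 of the 12 fits that omitted 1 library (adjusted p up to 0.133). Etv3, an ETS repressor, fell by 0.50 without FGF (0.0129) and was at log2 -0.21 with FGF (0.268). Etv5 had a lower fitted log2 fold change than each of these in both conditions. The counts of this short list moved with single libraries: without ETV4-guide replicate 2, 3 were called higher and 7 lower with FGF and 2 higher without, and omitting 1 library gave 0 to 3 higher and 3 to 7 lower with FGF, and 1 or 2 higher and 3 to 6 lower without. In the compared libraries alone, 2 were called higher and 7 lower with FGF, and 2 lower without.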

How the data were processed

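Per the submitters' processing notes, the authors used STAR 2.7.9a, featureCounts, FastQC 0.11.9 and R 4.1.1 with the builds hg38 and mm10. The sources used here give no annotation release, strand setting or rule for multi-mapping reads. The deposited values are the authors' unnormalized read counts for each gene symbol. Counts were tested in R 4.3.3 with the quasi-likelihood F-test of edgeR 4.0.16 (filterByExpr by group, TMM scaling, a mean per group over 12 libraries, 8 residual degrees of freedom, two-sided, Benjamini-Hochberg over 12079 genes, called under 0.05). The test was also run on simulated counts drawn with a common dispersion trend. That simulation held no library like ETV4-guide replicate 2 without FGF, so it does not show how the test handles such a library. The SE is the log2 fold change divided by the square root of F. Counts of the members ran from 510 to 3694 per library, a counting error of 1.65% to 4.43%, which covers counting only. Exons are from GENCODE vM21, and promoters from RefSeq. The members and gene lists were chosen with earlier results of these data known. Besides the members, the text names the 4 genes of most similar profile per member, without predicted genes, and the up to 4 genes per list with the smallest adjusted p among those called without FGF, 1 of which is not reported here; genes named for an FGF response or as the 2 called interactions are outside this rule and were named after their values were seen. Alternatives were DESeq2 1.42.0, limma-voom 3.58.1, RLE or upper-quartile scaling, other filters, a replicate block, the compared libraries alone, omission of each library, and removal of the trends of a library with GC content and exon length, added after seeing the data.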

Additional observations from a re-analysis of the deposited data

How the results depend on the processing

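The fall of Etv5 with the ETV4 guide kept its call under every alternative run, at log2 -1.11 to -1.03 with FGF and -0.97 to -0.85 without, and so did that of Etv4 with FGF (-0.56 to -0.46). With any 1 library omitted, Etv4 without FGF ranged from -0.51 to -0.27, with an adjusted p of up to 0.0667, and Etv1 without FGF from -0.16 to 0.11. Values that never passed the test and turned sign when 1 library was omitted were the FGF effect on Etv4 in control-guide cells (-0.0442 to 0.0355), those on Etv5 (-0.0433 to 0.0694) and Etv1 (-0.14 to 0.13) in ETV4-guide cells, and the difference of FGF effects for Etv1 (-0.0122 to 0.258) and Etv4 (-0.238 to 0.00673). The averaged FGF effect on Etv1 ranged from -0.14 to -0.00113. With the length and GC trends removed, Etv1 turned to 0.13 for the ETV4 guide without FGF (adjusted p = 0.0640), -0.17 for FGF in ETV4-guide cells and -0.10 for the difference of FGF effects; upper-quartile scaling turned Etv5 with FGF in ETV4-guide cells to -0.0181. The cause was not tested. Pooled over FGF conditions, r of Etv1 and Etv5 in control-guide libraries was -0.772 (exact permutation p adjusted 0.0333). It missed the threshold with RLE scaling (-0.767) and with group means subtracted (-0.431). With any 1 library omitted it missed as well (-0.922 to -0.684). The pairings left are then too few for a lone relation to pass after adjustment, so these omissions decide nothing. Pooled r of Etv5 and Etv4 was -0.0209, 0.0601 with RLE scaling, 0.471 with group means subtracted and -0.412 to 0.691 with 1 library omitted, and that of Etv1 and Etv4 -0.906 to 0.600 with 1 omitted. The labels do not say whether replicate numbers pair the libraries. Correlations of same-numbered deviations were 0.06, -0.055 and -0.058 between the guides without FGF and -0.014, 0.006 and -0.024 with FGF. The largest were 0.21, 0.343 and 0.075, between ETV4-guide libraries without FGF and control-guide libraries with FGF, which were not compared directly. Different-numbered libraries were not correlated, so these values cannot settle whether same-numbered libraries were set up together. A replicate block gave Etv5 -1.06 and -0.91, Etv4 -0.51 and -0.36, and Etv1 0.10 and -0.08 with and without FGF, and changed no member call. Counts of called genes moved with the fit: genes higher with the ETV4 guide numbered 2723 without FGF but 1805 in the compared libraries alone, and 2180 with FGF but 3439 without ETV4-guide replicate 2. For FGF they numbered 178 higher and 114 lower with the ETV4 guide but 18 and 5 in the compared libraries alone, 410 and 320 by DESeq2 and 585 and 365 without replicate 2, and 31 and 28 with the control guide but 130 and 98, 85 and 58, and 194 and 149. For the difference of FGF effects they were 2 and 0 but 42 and 24 by DESeq2 and 88 and 32 without replicate 2, and for the averaged FGF effect 171 and 122 but 347 and 244, and 614 and 497. With any 1 library omitted, genes higher and lower for FGF numbered 10 to 194 and 15 to 149 with the control guide, 75 to 585 and 45 to 365 with the ETV4 guide, 0 to 88 and 0 to 32 for their difference (none in 7 of 12 fits), and 101 to 614 and 70 to 497 for the average. With the length and GC trends removed, 59 genes were higher and 50 lower for FGF with the control guide, 462 and 324 with the ETV4 guide, 16 and 3 for their difference and 371 and 248 for the average.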
